A study of Equus caballus with 4 samples.

Results

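The genes described here encode the machinery of autophagy, the cathepsins and the proton pump of the lysosome. They were chosen by symbol in the array's own annotation: the ATG genes, the ATG8 family (names that begin with GABARAP or MAP1LC3), *ULK1*, *ULK2*, *BECN1*, *SQSTM1*, *TFEB*, the cathepsins, the LAMP genes and the subunits of the vacuolar ATPase (names that begin with ATP6V0 or ATP6V1). In all, 58 of the 24998 gene or transcript names on the array fitted, with 120 probes. Of the 58, 56 are also symbols in the RefSeq genes of the horse (assembly TB-T2T). A further 11 RefSeq symbols of the same kinds, among them *GABARAP* and *CTSL*, had no probe under that name and are not analysed here.

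Autophagy encloses cytoplasm, aggregates and worn organelles in a membrane that is fed by lipid-transfer proteins and marked with small ubiquitin-like proteins of the ATG8 family, and delivers them to the lysosome. There the vacuolar ATPase, a rotary pump with a membrane sector (V0) and a cytosolic sector (V1), acidifies the lumen, and the cathepsins, which are proteases active at low pH, degrade the contents. In skeletal muscle this route works beside the proteasome in protein breakdown and in the remodelling of myoblasts into fibres, and the transcription factor TFEB and its relatives raise many of its genes together.

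Equine satellite cells (ESC), the muscle precursor cells, had been isolated from the *semitendinosus* of young colts and kept in differentiation medium for 2 days before HMB (*β*-hydroxy-*β*-methylbutyrate), which cells make from leucine, was added for 24 h. Control cells stayed in differentiation medium, and both groups were collected on the third day of differentiation. RNA of HMB-treated cells (Cy5) and of control cells (Cy3) was hybridised together on each of 4 arrays, which the labels call biological replicates. The question was which mRNA differ after exposure to HMB. Cells from each culture flask had been divided between a plate for HMB and a control plate. The sources give the amount of HMB both as 50 µM and as 50 µg, and do not name the animals behind each array or say whether an array compares cells of 1 animal. A free-text field of the labels speaks of GO-treated cells with a single replicate number, so the titles, which name HMB and 4 replicates, were used. No array had the dyes exchanged, so a probe that binds Cy5 or Cy3 material unequally carries that into its ratio.

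All values below are log2 ratios of HMB-treated over control cells, and errors are SD over the 4 arrays. A probe was tested with limma where all 4 arrays had it well above background in the same channel, and a gene is represented by its brightest tested probe. This held for 94 probes of 46 of the 58 genes. The threshold was an adjusted *P* of 0.05, with the adjustment over all 27383 tested probes of the array. Past it were 22.8% of all tested probes and 22.4% of the 15614 tested genes or transcripts, 10.9% higher and 11.6% lower in HMB-treated cells. Among the 46 tested genes of interest 9 (19.6%) were past it, 2 higher and 7 lower. This share is near that of the whole array, so the number of calls is not a result about these genes, and what follows is which of them changed. With both channels required above background, 8 of 45 passed, against 21.4% of all genes so tested. The methods' t-test is a Student test that the study's processing notes name and its methods section does not. In it 12 of the 46 had an unadjusted *P* under 0.05. The number in limma was also 12, but the genes were not all the same. Of all 27383 tested probes 8435 had an unadjusted *P* under 0.05 in the t-test and 10546 in limma. These counts of 12 are therefore not a result about the genes of interest either. After adjustment 1 passed in the t-test, *CTSC*, whose HMB signal was not above background.

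**Figure D1:**
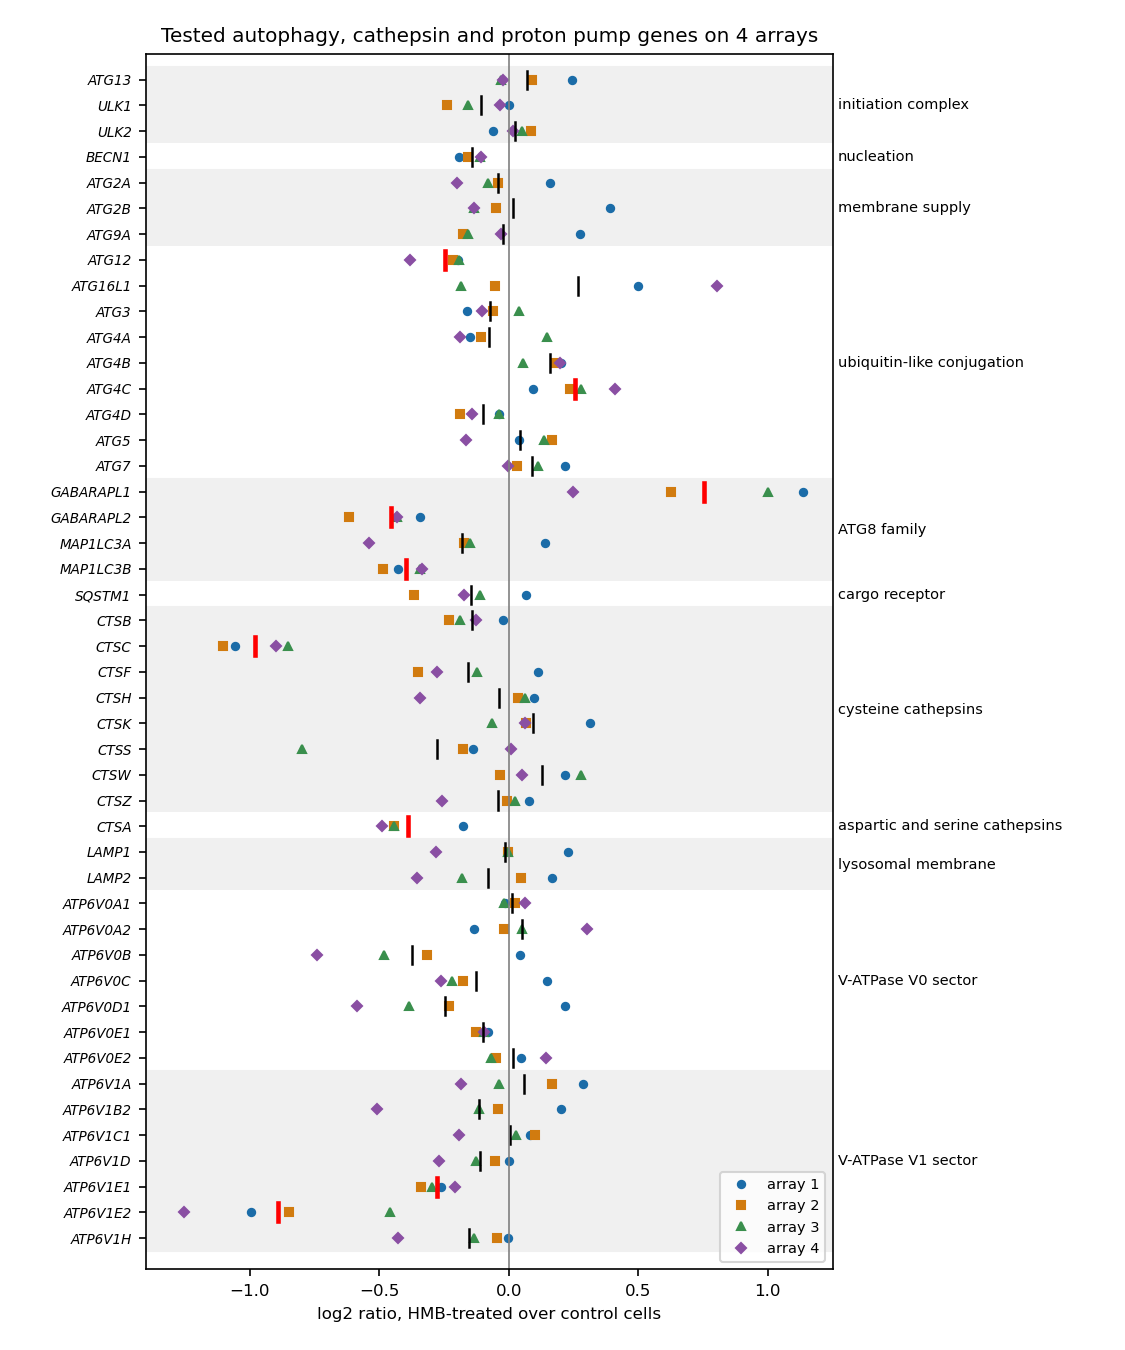
Log2 ratio of HMB-treated over control cells (horizontal axis) for the 46 tested genes, grouped by role, with 1 symbol for each array and a vertical stroke for the mean, which is red and thick in the 9 genes past the threshold. *ATP6V1E2* lies far to the left and *GABARAPL1* to the right, the place of *CTSC* is not a measured size since its HMB channel was not above background, and for most of the other genes the symbols lie on both sides of 0.

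Upstream in the pathway no tested gene passed the threshold in limma or in the methods' t-test, and 1, *BECN1*, had an unadjusted *P* under 0.05 in limma. Over all tested genes 22.4% passed in limma, so the absence of calls among so few genes is not a result about them. *ULK1* and *ULK2*, the kinases that start autophagosome formation, had means of -0.11 ± 0.11 and 0.02 ± 0.06, and *ATG13*, which binds them, had 0.07 ± 0.13. Without lowess normalisation *ULK1* was -0.29 and past the threshold (adjusted *P* = 0.0405, in a range up to 0.692 over the alternatives). *BECN1*, a subunit of the lipid kinase complex that nucleates the membrane, gave -0.19, -0.16, -0.11 and -0.11 on arrays 1 to 4. All 4 values were below 0 and close together, but at a mean of -0.14 ± 0.04 the adjusted *P* in limma was 0.127. It was 0.0463 where dim probes were tested too, the lowest of the alternatives, which reached 0.366. *ATG2A* and *ATG2B*, which transfer lipids to the growing membrane, and the scramblase gene *ATG9A* lay between -0.04 and 0.02. Array 1 was the highest for each of these 3 genes, at 0.16, 0.39 and 0.27. *ATG14* was not well above background in either channel on any array, and *ATG9B* was so on 1 array, in the control channel. Neither was tested.

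The conjugation enzymes attach ATG12 to ATG5 and ATG8 proteins to lipid. Of the 9 tested genes of this group 1 fell and 1 rose, which is 22.2%, close to the 22.4% of all tested genes. *ATG12*, the ubiquitin-like modifier itself, had ratios of -0.20, -0.22, -0.19 and -0.38. The first 3 arrays nearly coincided and array 4 lay lower. The mean fell by 0.25 ± 0.09, or 1.19-fold, lower on 4 of 4 arrays, with an adjusted *P* of 0.0396. This call rests on every array: leaving out any of them ended it, at -0.26, -0.26, -0.26 and -0.20 without arrays 1 to 4, and with adjusted *P* values between 0.0642 and 0.143 in a range of 0.0229 to 0.209 over all alternatives.

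*ATG4C*, one of the proteases that prime ATG8 proteins and free them from lipid, had ratios of 0.09, 0.24, 0.28 and 0.41. All were above 0, and their spread was wide beside their size. The mean rose by 0.25 ± 0.13, or 1.19-fold, with an adjusted *P* of 0.0492, the closest to the threshold among the 9 genes. It is a value of 1 probe, on an assembled transcript contig. The probe of the gene model ENSECAT00000001899 gave -0.02 (adjusted *P* = 0.863, 2 of 4 arrays below 0). Averaging both probes gave 0.12 and ended the call, as did leaving out array 2 (0.26, adjusted *P* = 0.162), array 3 (0.25, 0.167) or array 4 (0.20, 0.0997), with a range of 0.0315 to 0.321 over the alternatives. Arrays 1 and 2 alone, an alternative chosen after seeing the data, gave 0.16.

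The other conjugation genes did not pass. *ATG4B* gave 0.20, 0.18, 0.05 and 0.20, with a mean of 0.16 ± 0.07 and an adjusted *P* of 0.110. *ATG16L1*, which places the conjugation complex on the membrane, had the highest mean of the group, 0.27, and also its largest SD, 0.47. Arrays 1 and 4, at 0.50 and 0.80, lay apart from arrays 2 and 3, at -0.05 and -0.19. *ATG3*, *ATG4A*, *ATG4D*, *ATG5* and *ATG7* lay between -0.10 and 0.09.

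The ATG8 family held 3 changes among its 4 tested genes, in both directions, where 22.4% of all tested genes were past the threshold. With 4 genes this count is not read as a result about the family, and the call of *MAP1LC3B* came from only some of its probes. *GABARAPL1* rose, *GABARAPL2* and *MAP1LC3B* fell, and *MAP1LC3A* did not pass the threshold (-0.18 ± 0.28, adjusted *P* = 0.277). The proteins of the family are attached to the growing membrane, where they hold cargo receptors and help it to close and fuse.

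*GABARAPL1* was measured by 5 probes that start 1 base after another on chromosome 6 (37478556 to 37478619, EquCab1) and share 56 bases, so they are repeated readings of 1 stretch. The brightest is printed with the shared stretch in capitals, since the only rise of the family rests on it.
GABARAPL1, brightest probe: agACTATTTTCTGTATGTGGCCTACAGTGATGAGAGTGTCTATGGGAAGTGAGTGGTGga
The array's description of these probes names the pseudogene *GABARAPL3*, while their gene symbol is *GABARAPL1*. The ratios were 1.14, 0.63, 1.00 and 0.25 on arrays 1 to 4. All 4 were above 0, with array 4 far below arrays 1 and 3. The mean rose by 0.75 ± 0.40, or 1.69-fold, with an adjusted *P* of 0.0178. The other tested probe gave 0.57 but entered the test through the HMB channel only, with the control channel well above background on 3 arrays, so it is no separate support for the rise. The remaining 3 probes had neither channel well above background on all 4 arrays and were not tested.

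The size of this rise depends on the processing of the signals: with the normexp correction and loess together it was 0.34 (adjusted *P* = 0.0352). Without lowess normalisation it was 0.51 and not past the threshold (adjusted *P* = 0.0817). Leaving out array 1 (0.63, adjusted *P* = 0.0532) or array 3 (0.67, 0.0675) also ended the call, as did comparing the channels without pairing (0.203) and testing dim probes too (0.0977). Over all alternatives the adjusted *P* ranged from 0.0104 to 0.203, and the value stayed above 0.

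*GABARAPL2* had ratios of -0.34, -0.62, -0.43 and -0.43. The arrays lay close together, with array 2 the lowest. The mean fell by 0.46 ± 0.12, or 1.37-fold, with an adjusted *P* of 0.00821. Its 3 probes on chromosome 3 (24336712 to 24336831) all passed, with means of -0.46, -0.41 and -0.25, each below 0 on 4 of 4 arrays. The brightest and the dimmest share no base, and the middle probe overlaps both. The dimmest passed only narrowly (adjusted *P* = 0.0492). The call held whichever array was left out.

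*MAP1LC3B* encodes LC3B, whose lipid-bound form is the usual marker of autophagosomes. It was measured by 5 probes in 2 places on chromosome 3. The probes of both places did not give the same value. The 3 probes of the contig JL617449 (34029774 to 34029875) overlap in 18 bases, and the 2 probes of the gene model ENSECAT00000010217 (34028224 to 34028538) lie 1235 bases before them. The shared bases and a probe of the gene model are printed because the call depends on which of the places is read.
MAP1LC3B, stretch shared by the probes of the contig: GGGGACTTACATCCCACA
MAP1LC3B, first probe of the gene model: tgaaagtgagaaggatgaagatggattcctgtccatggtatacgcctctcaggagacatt

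At the contig the brightest probe gave -0.43, -0.49, -0.34 and -0.33. The 4 arrays lay close together. The mean fell by 0.40 ± 0.07, or 1.32-fold, with an adjusted *P* of 0.00884, and the other probes there gave -0.39 (0.00796) and -0.34 (0.0145), all below 0 on 4 of 4 arrays. The probes of the gene model gave -0.07 and 0.00 (adjusted *P* = 0.514 and 0.983). On arrays 1 to 4 the gene model exceeded the contig by 0.30, 0.44, 0.34 and 0.31, on average by 0.35 ± 0.07. It had the same sign on every array, and the exact two-sided sign-reversal test over 4 arrays gave *P* = 0.125, the smallest it can give (0.167 after adjustment over the 4 genes with probes of both kinds). Averaged over all 5 probes, the gene's ratio was -0.24 (adjusted *P* = 0.0357). Without array 2 the ratio of the brightest probe was -0.37 and the adjusted *P* 0.0562, the highest of the 16 alternatives, whose lowest was 0.00274.

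**Figure D2:**
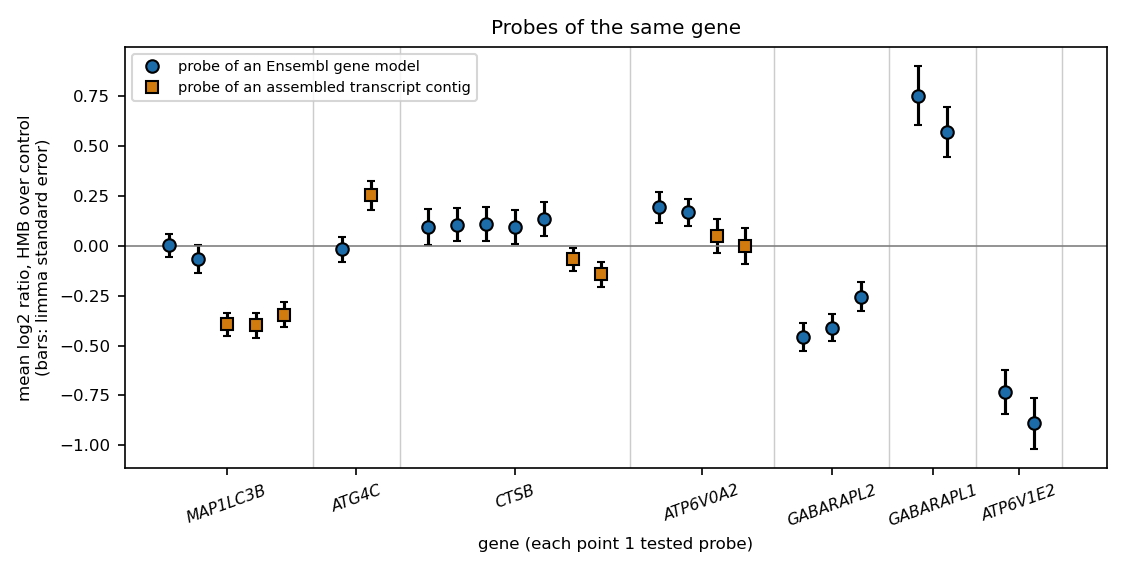
Mean log2 ratio of each tested probe (vertical axis, bars are limma's standard error) of 7 genes, with circles for probes of Ensembl gene models and squares for probes of assembled contigs. The squares of *MAP1LC3B* lie between -0.40 and -0.34 and its circles near 0, while the probes of *GABARAPL2*, *GABARAPL1* and *ATP6V1E2* lie on the same side of 0 within each gene.

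Probes of other genes differed too, mostly by less than those of *MAP1LC3B*. Of the 22 genes with several tested probes, 9 had means of both signs, *MAP1LC3B* among them. In *ATG4A*, *CTSH*, *CTSZ* and *ULK2* these means lay between -0.07 and 0.05, with none past the threshold. Of the 22, 2 had some probes past the threshold and some not (*MAP1LC3B* and *ATG4C*). All tested probes were past it in 3 (*ATP6V1E2*, *GABARAPL2* and, with 1 of its 2 tested through the HMB channel only, *GABARAPL1*). *CTSB* had 5 gene-model probes between 0.09 and 0.13 and 2 contig probes at -0.14 and -0.07, with none past the threshold.

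*SQSTM1*, whose protein p62 carries ubiquitin-tagged cargo to the ATG8 proteins, had ratios of 0.07, -0.36, -0.11 and -0.17. The signs differed between arrays, and the mean of -0.15 ± 0.18 was not past the threshold. *TFEB* was well above background on 2 arrays in each channel and was not tested.

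Among the cathepsins 2 of the 9 tested genes fell and none rose. The share past the threshold, 22.2%, is close to the 22.4% of all tested genes, so the count is not a result about cathepsins. *CTSC*, whose protease activates the granule proteases of leukocytes, had ratios of -1.06, -1.10, -0.85 and -0.90 on chromosome 7 (45663440 to 45663499). With this probe control cells gave a signal well above background on each array and HMB-treated cells on none, so the size is only a bound: *CTSC* was at least 1.32-fold lower in HMB-treated cells. It entered the test through the control channel alone, and its adjusted *P* of 0.00116, with 4 of 4 arrays below 0, is set against a signal not above background. The gene's other probe, which overlaps this one, was not well above background in either channel on any array and was not tested, so the call is that of 1 probe. Fewer cells that express a gene and less of its mRNA in each cell cannot be told apart here. With loess and the normexp correction, which adds a constant of 50 to every signal, the ratio was -0.24. Its adjusted *P* was 0.0206, in a range of 0.00026 to 0.0408 over the alternatives, and the call held whichever array was left out. All these values are set against an HMB signal not above background, so they show no stability of a measured change. With both channels required above background *CTSC* had no value.

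*CTSA* encodes a serine carboxypeptidase that also protects *β*-galactosidase and neuraminidase in the lysosome. Its ratios were -0.18, -0.44, -0.44 and -0.49. Arrays 2 to 4 lay together and array 1 lay nearer 0. The mean fell by 0.39 ± 0.14, or 1.31-fold, with an adjusted *P* of 0.0167 and 4 of 4 arrays below 0. The call ended without array 2 (-0.37, adjusted *P* = 0.0791) and without array 3 (-0.37, 0.0736), with a range of 0.00579 to 0.122 over the alternatives. *NEU1*, the neuraminidase, is given below.

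The other tested cathepsins did not pass. *CTSB*, an abundant protease of most cells, had -0.02, -0.23, -0.19 and -0.13, a mean of -0.14 ± 0.09 (adjusted *P* = 0.155). No direction can be given for it: without lowess normalisation the same probe gave 0.34 and passed the threshold (adjusted *P* = 0.0168, in a range up to 0.689), and the mean over its probes was 0.05. *CTSS*, typical of antigen-presenting cells, had a mean of -0.28 that came mostly from array 3, at -0.80, with -0.14, -0.18 and 0.01 on the other arrays. *CTSK*, the collagenase of osteoclasts and fibroblasts, had 0.09 ± 0.16, and *CTSF*, *CTSH*, *CTSW* and *CTSZ* lay between -0.16 and 0.13.

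*CTSD*, the main aspartic protease of the lysosome, was not well above background in either channel on any array, with any of its 5 probes, and the same held for *CTSE* and *CTSG*. All 5 probes of *CTSD* come from the same record and have no genome position in the array's annotation. Whether they bind its mRNA was not tested, so their low signal does not show that the mRNA is absent. *CTSO* was well above background in the HMB channel on 3 arrays and in the control channel on none, so it was not tested. Its ratios were 0.83, 1.85, 1.01 and 2.28, the last from array 4, where neither channel was well above background. The HMB signal averaged over all 4 arrays, array 4 included, and set against the background floor stands for at least 1.71-fold higher signal in HMB-treated cells. Without array 4, and with arrays 1 and 2 alone, it entered the test through the HMB channel only and was past the threshold there, against a control signal not above background. The LAMP proteins line the lysosomal membrane. *LAMP1* and *LAMP2* gave -0.02 ± 0.21 and -0.08 ± 0.23, with array 1 the highest and array 4 the lowest for both, and *LAMP3* and *LAMP5* were not well above background on any array.

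The V1 sector of the proton pump, which splits ATP, had 2 of 7 tested genes lower and none higher, and both encode forms of the same stalk subunit, E. Over all tested genes 11.6% were lower and 10.9% higher, and 7 genes are too few to read the count as a result. *ATP6V1E1* is the broadly expressed form and *ATP6V1E2* the form known from testis. Their probes are printed to show how far their sequences differ, and whether each binds only its own mRNA was not tested. Over 40 aligned bases the *ATP6V1E1* probe and the dimmer *ATP6V1E2* probe were identical at 30 (75%), in capitals, and the brighter *ATP6V1E2* probe is of a neighbouring stretch.
ATP6V1E1: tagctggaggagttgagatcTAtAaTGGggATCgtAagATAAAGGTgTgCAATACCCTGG
ATP6V1E2, dimmer probe: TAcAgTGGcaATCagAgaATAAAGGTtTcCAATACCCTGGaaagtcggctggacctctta
ATP6V1E2, brighter probe: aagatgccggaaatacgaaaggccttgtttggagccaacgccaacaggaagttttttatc
The *ATP6V1E1* probe lies on chromosome 6, its 60 bases spread over 2643 bases of the genome (27843002 to 27845644), and the *ATP6V1E2* probes lie on chromosome 15 (49036467 to 49036595).

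*ATP6V1E2* had ratios of -0.996, -0.85, -0.46 and -1.26. All were well below 0, and array 3 was the nearest to it. The mean fell by 0.89 ± 0.33, or 1.85-fold, with an adjusted *P* of 0.00704, and the dimmer probe had -0.73 (0.00844, 4 of 4 arrays below 0). The call held whichever array was left out but ended when dim probes were tested too (adjusted *P* = 0.058, in a range of 0.003 to 0.0935). *ATP6V1E1* had -0.26, -0.34, -0.30 and -0.21, a much smaller and tighter set. The mean fell by 0.28 ± 0.06, or 1.21-fold, with an adjusted *P* of 0.0227. Leaving out array 2 (-0.26, adjusted *P* = 0.128) or array 3 (-0.27, 0.1) ended this call, as did the absence of lowess normalisation (-0.24, 0.0569), and the alternatives ranged from 0.00892 to 0.128.

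No other subunit passed the threshold. In the V1 sector *ATP6V1A* and *ATP6V1B2*, which form the catalytic ring, had 0.06 ± 0.21 and -0.12 ± 0.29, and *ATP6V1C1*, *ATP6V1D* and *ATP6V1H* lay between -0.15 and 0.00. The V0 sector, which carries the protons, had 0 of 7 tested genes past the threshold in limma and in the methods' t-test, and 1, *ATP6V0B*, with an unadjusted *P* under 0.05 in limma. Beside the 22.4% of all tested genes past it in limma, this count of 7 genes is not a result about the sector. *ATP6V0B*, of the proton-carrying ring, had 0.04, -0.32, -0.48 and -0.74, and *ATP6V0D1*, which joins the sectors, had 0.22, -0.23, -0.38 and -0.59. In both genes array 1 was above 0 and the other arrays below it. Their means were -0.37 ± 0.33 (adjusted *P* = 0.0783) and -0.25 ± 0.34 (0.215). Without array 1 both were past the threshold, at -0.51 (adjusted *P* = 0.034, range 0.034 to 0.491) and -0.40 (0.0447, range 0.0447 to 0.977). Without array 4 *ATP6V0D1* was -0.13 (0.494), and on arrays 1 and 2 alone the values were -0.14 (0.491) and -0.01 (0.977). *ATP6V0C* gave -0.13 ± 0.19, and *ATP6V0A1*, *ATP6V0A2*, *ATP6V0E1* and *ATP6V0E2* lay between -0.10 and 0.05. *ATP6V0E1*, at -0.10, passed where dim probes were tested too (adjusted *P* = 0.0371, in a range up to 0.548) and was 0.16 without lowess normalisation (0.168). *ATP6V0A4*, *ATP6V0D2* and *ATP6V1C2*, known from kidney, osteoclasts or epithelia, were too dim to be tested.

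Over all 46 tested genes the median of the mean log2 ratios was -0.08, against 0.02 over all tested genes of the array, and 30 means (65.2%) were below 0, against 46.6%. The median was -0.03 without array 4, -0.01 with arrays 1 and 2 alone, -0.04 with the probes of a gene averaged, -0.05 without lowess normalisation, and -0.11 without array 1. The arrays did not give the same picture. The median over the 46 genes was 0.06, -0.05, -0.11 and -0.18 on arrays 1 to 4, whereas over all tested genes it was 0.01, 0.01, 0.03 and 0.01. Array 1 gave the highest ratio for 28 of the 46 genes (60.9%, against 34.0% of all genes), and array 4 the lowest for 22 (47.8%, against 34.4%). The sign was the same on all 4 arrays for 15 genes (32.6%, against 45.8% of all genes), and the SD exceeded the size of the mean in 31. By family, the medians were -0.04 for the 21 autophagy genes, -0.14 for the 9 cathepsins and -0.11 for the 14 subunits of the pump. In each family array 1 was the highest and array 4 the lowest.

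**Figure D3:**
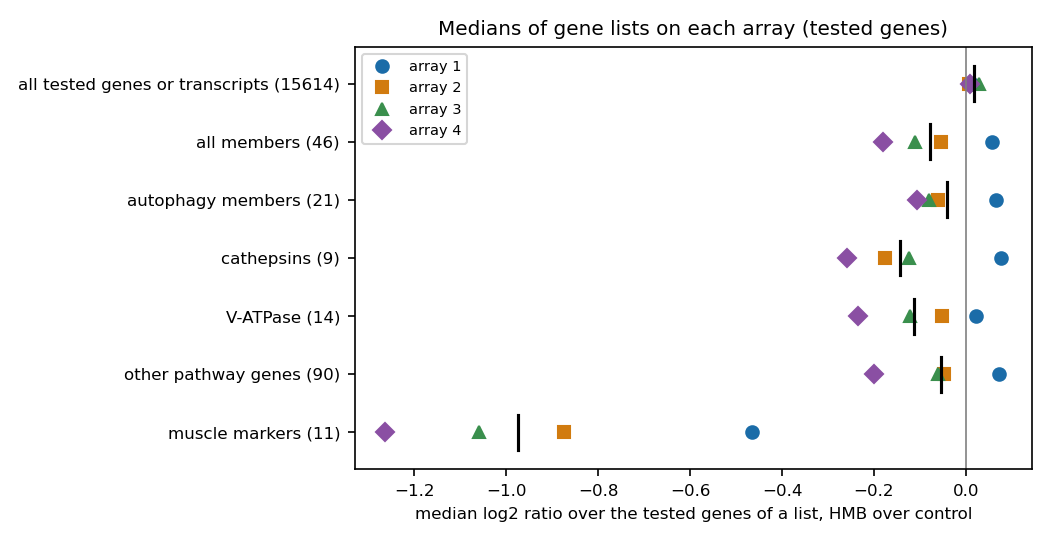
Median log2 ratio of HMB-treated over control cells (horizontal axis) over the tested genes of each list, whose number is in brackets, with 1 symbol for each array and a stroke for the median of the gene means. Array 1 is the rightmost and array 4 the leftmost symbol in the genes of interest, the other pathway genes and the muscle markers, while the arrays coincide near 0 over all genes.

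Markers of muscle differed between the samples in the same comparison. All 11 tested muscle markers fell, by a median of 0.98, from *MYH8* at -1.93 to *MYF6* at -0.28 (1 of 2 probes of *MYOD1* did not pass), and their median was -0.47, -0.88, -1.06 and -1.26 on arrays 1 to 4. The order of the arrays was that of the autophagy and lysosome genes, but it was not particular to muscle markers. The medians of the tested fibroblast markers, 0.33, -0.06, -0.07 and -0.07, had the same order. Those of the tested macrophage markers also had array 1 the highest (0.20) and array 4 the lowest (-0.05). Of the markers of macrophages, which are rich in cathepsins, 4 of 11 on the array could be tested. *MSR1*, a scavenger receptor, was well above background in HMB-treated cells alone and was at least 1.87-fold higher there. *CD68* (-0.29), *CD14* (0.02) and *FCER1G* (0.06) did not pass, and *ITGAM*, *LAPTM5*, *TYROBP* and *MRC1* were not well above background on any array. *ITGB2* was so on 2 arrays in each channel, *AIF1* on 1 in each and *CSF1R* on 1 in the control channel, and none of them was tested. The cells had been preplated against fibroblasts before they were divided between the HMB and control plates. Of 8 tested fibroblast markers 2 were higher on 4 of 4 arrays, *PDGFRA* (1.53, adjusted *P* = 0.00358) and *FAP* (0.42, 0.0185). The other 6 did not pass, with *COL1A2* at -0.20 and *COL3A1* at -0.21 by their brightest probes. Other probes did: 2 of 9 of *COL1A2*, whose lowest mean was -0.59, and 1 of 2 of *DCN*, at 0.39. None of the 5 endothelial and 5 adipocyte markers on the array was bright enough to be tested. The part of these markers in the ratios of the autophagy and lysosome genes was not tested.

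Other genes of the same pathways, listed by function, numbered 121, of which 97 were on the array by name and 90 were tested. Past the threshold were 7 higher and 12 lower genes, 21.1%, again close to the share of all genes, and their median was -0.06. On arrays 1 to 4 it was 0.07, -0.05, -0.06 and -0.20, the same order as above. *RRAGD*, a small GTPase that recruits the kinase mTORC1 and TFEB to lysosomes, had -1.10, -1.02, -0.86 and -1.28, a mean of -1.06 ± 0.17 (adjusted *P* = 0.00128, 4 of 4 arrays below 0). With the normexp correction and loess the mean was -0.53 (0.00273, in a range of 0.000791 to 0.0468). *MITF*, a relative of TFEB, rose by 0.45 ± 0.25 with its brightest probe (adjusted *P* = 0.0258, 4 of 4 arrays). Of its 3 tested probes 1 passed, the lowest mean was 0.16, and averaging them gave 0.28 and no call (0.073). The call also ended without array 2 (0.49, 0.0726), 3 (0.40, 0.101) or 4 (0.38, 0.0645), with dim probes tested too (0.104) and on arrays 1 and 2 alone (0.25, 0.168), with adjusted *P* values from 0.0178 to 0.168. Its relative *TFE3* gave 0.01 ± 0.11.

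Among the genes around the pump, *ATP6AP1*, an assembly factor of the V0 sector, had -0.18, -0.44, -0.39 and -0.46 and fell by 0.37 ± 0.13 (adjusted *P* = 0.0176) with its brighter probe. The other probe gave -0.05, and the mean of both, -0.21, was not past the threshold (0.121). Without lowess normalisation the value was -0.22 (0.053), and the call also ended with unpaired channels (0.105) and without array 2 (-0.34, 0.086) or array 3 (-0.36, 0.0754), in a range of 0.00795 to 0.123. *ATP6AP2*, its partner, had -0.13, -0.23, -0.31 and -0.99. All 4 values were below 0, array 4 far from the rest, and the mean of -0.42 ± 0.39 did not pass (adjusted *P* = 0.0871). Without array 4 it was -0.22 and did not pass either (0.0773, in a range of 0.063 to 0.271), and on arrays 1 and 2 alone it was -0.18. *TCIRG1*, the osteoclast form of subunit a, and *CTSL1* were not found by name.

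The inhibitors of cysteine cathepsins moved in both directions. *CSTA*, a cytosolic inhibitor, had 0.53, 1.03, 1.12 and 1.73, and rose by 1.103 ± 0.49 (adjusted *P* = 0.01). *CST6*, a secreted one, had -0.30, -0.54, -1.12 and -0.69, and fell by 0.66 ± 0.34 (adjusted *P* = 0.018). Each was on 1 side of 0 on 4 of 4 arrays. The rise of *CSTA* was past the threshold whichever array was left out, but not with dim probes tested too (0.0741) or in the methods' t-test (0.111), in a range of 0.00553 to 0.111. *CST6* was -0.26 without lowess normalisation (adjusted *P* = 0.108) and -0.42 on arrays 1 and 2 alone (0.0552), neither of them past the threshold. Its call also ended with unpaired channels (0.0518), with dim probes tested too (0.0946) and without array 4 (-0.65, 0.051), in a range of 0.00946 to 0.132. *LGMN*, the asparagine protease that processes cathepsins, rose by 0.28 ± 0.11 (adjusted *P* = 0.0316, 4 of 4 arrays above 0) and all 5 of its probes passed, but leaving out any array ended the call (0.23, 0.31, 0.31 and 0.29 without arrays 1 to 4, adjusted *P* = 0.061 to 0.0978, in a range of 0.0249 to 0.107).

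Of 10 tested genes for fusion of autophagosomes with lysosomes, 2 rose and none fell, both of them SNARE genes. This is 20%, near the 22.4% of all tested genes past the threshold. *VAMP8* had 0.60, 0.49, 0.52 and 0.54, values that nearly coincided, with a mean of 0.54 ± 0.04 (adjusted *P* = 0.00335), and it passed under all 16 alternatives (0.00118 to 0.0371). *VAMP7* rose by 0.27 ± 0.12 (adjusted *P* = 0.0375, 4 of 4 arrays above 0) with its brighter probe, while the other gave 0.09 and did not pass, and the mean of both, 0.18, was not past the threshold (0.0866). The call also ended without lowess normalisation (0.0648), with unpaired channels (0.0532), with dim probes tested too (0.075) and without array 2 (0.27, adjusted *P* = 0.14), 3 (0.22, 0.158) or 4 (0.29, 0.0637), in a range of 0.0351 to 0.216. Of 25 tested lysosomal hydrolases and their activators 2 rose and 5 fell, which is 28%, against 22.4% of all tested genes. *PPT1*, a thioesterase, fell by 0.58 ± 0.29 (adjusted *P* = 0.0176), and *NEU1*, the neuraminidase that CTSA protects, fell by 0.35 ± 0.14 (adjusted *P* = 0.022), both on 4 of 4 arrays. The call of *PPT1* ended without array 2 (-0.59, 0.058) or 3 (-0.60, 0.0587), with adjusted *P* values in a range of 0.00975 to 0.125. That of *NEU1* ended without array 2 (-0.32, 0.104), 3 (-0.33, 0.0928) or 4 (-0.33, 0.0541), in a range of 0.0124 to 0.154. Both calls also ended with dim probes tested too (0.088 and 0.066). On arrays 1 and 2 alone neither passed (-0.41, 0.0611 and -0.28, 0.154). The ratios of *NEU1*, -0.14, -0.43, -0.41 and -0.42, had array 1 nearest 0, as in *CTSA*. *GM2A*, the activator of ganglioside breakdown, rose by 0.26 ± 0.09 (adjusted *P* = 0.0347, 4 of 4 arrays above 0), a call that ended whichever array was left out (0.23, 0.30, 0.27 and 0.24 without arrays 1 to 4, adjusted *P* = 0.0712 to 0.119) and without lowess normalisation (0.113), in a range of 0.0322 to 0.178. *PSAP*, the precursor of the saposins, had a mean of -0.32 ± 0.14 (adjusted *P* = 0.0279, 4 of 4 arrays below 0), but without lowess normalisation it was 0.32 (adjusted *P* = 0.0205, in a range of 0.0132 to 0.156), so its direction depends on the dye normalisation. Its call ended without array 2 (-0.28, 0.132), 3 (-0.31, 0.109) or 4 (-0.32, 0.062), and 1 of its 3 tested probes passed. It also ended with the normexp correction and loess (-0.17, 0.0978) and with the mean over the probes (-0.23, 0.12).

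Some alternatives ended several calls together. A minimum change of 1.3-fold left out *ATG12*, *ATG4C* and *ATP6V1E1*. Testing dim probes too ended the calls of *ATG12* (adjusted *P* = 0.0588), *ATG4C* (0.0936) and *CTSA* (0.0572) beside those named above, and the unpaired channels those of *ATG12* (0.0994) and *ATG4C* (0.149). Arrays 1 and 2 alone did not give calls for *ATG12* (-0.21), *ATG4C* (0.16), *ATP6V1E1* (-0.30) and *CTSA* (-0.31). In none of these did a gene of the 9 change its sign.

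**Figure D4:**
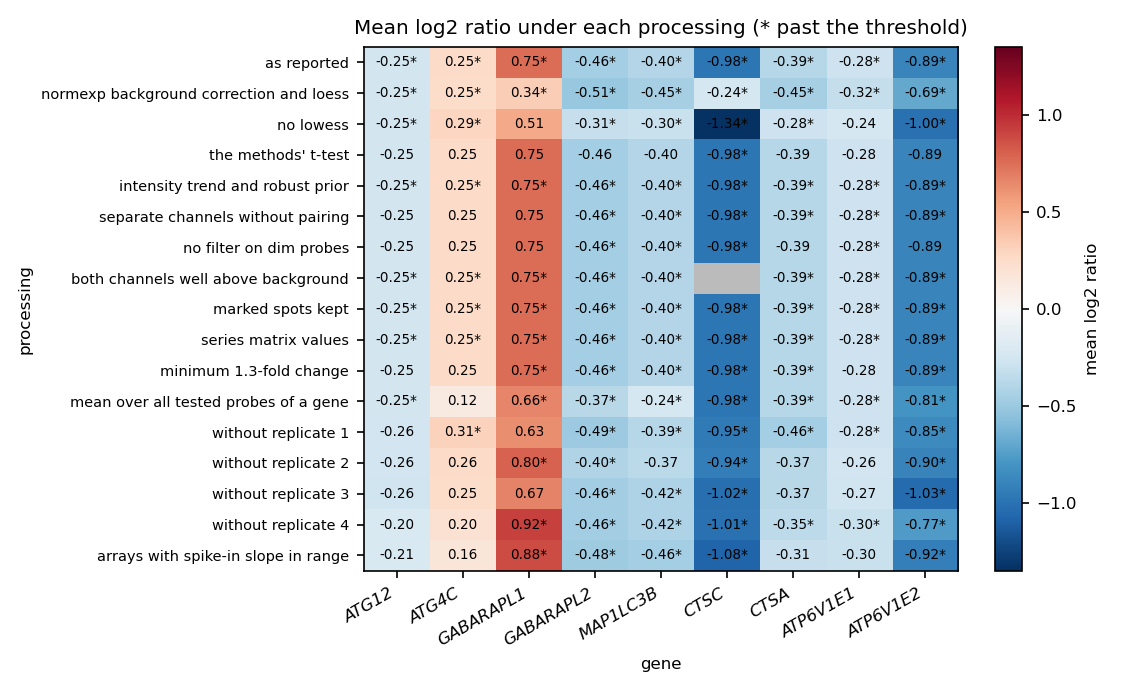
Mean log2 ratio of the 9 genes past the threshold (columns) as reported and under the 16 alternatives (lines), with colour for the value from blue (lower in HMB-treated cells) to red (higher) and an asterisk where the gene was past the threshold. Grey marks *CTSC* where both channels had to be well above background, and the columns of *CTSC*, *GABARAPL2* and *ATP6V1E2* hold an asterisk whichever array was left out. The asterisks of *CTSC* are set against an HMB signal not above background.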

How the data were processed

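RNA of HMB-treated (Cy5) and control (Cy3) cells was measured on 4 Agilent arrays of 1 slide. The authors scanned them with Feature Extraction (version 10.10.1.1 per the file headers), and deposited spot intensities, background-subtracted and dye-normalised by linear lowess, and their log10 ratios, Cy5 over Cy3. The deposited series table holds the same log10 values (largest difference 0, column medians 0), with scale and direction found from this match. Ratios were multiplied by 3.32 to log2. Control spots and spots marked non-uniform or outlying (11, 17, 32 and 15 on arrays 1 to 4) were left out, none was saturated, and spots of a probe were averaged. Testing required the same channel well above background on 4 arrays and values on at least 3, or 2 with an array left out.

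limma (version 3.58.1, under R 4.3.3) fitted the mean ratio of each probe with empirical Bayes variances, two-sided, with Benjamini and Hochberg adjustment. The fit was tested on simulated data, where the share of shifted probes that it had to recover was lowered after a first run had missed it. Bounds ("at least") set the bright channel against the lowest signal well above background, after Aquantile normalisation of the channels, and remain open to dye bias. Version 1.17.8 of data.table, Python 3.11.15, numpy 2.4.6, pandas 2.3.3 and matplotlib 3.10.9 were also used. The number of arrays limits the precision.

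Any member gene could be named. Array values were given for members past the threshold, and for some others chosen after their values were seen. Of the other pathway genes, the 6 with the smallest adjusted *P* in each direction, *CTSL1*, *TCIRG1*, *ATP6AP1*, *ATP6AP2*, *MITF* and *TFE3* were named. The members and lists were chosen with earlier results of these data known.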

Additional observations from a re-analysis of the deposited data

Results flagged for a closer look

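In 7 of 85 sets of 4 array values, 1 array lay far from the rest, measured as its gap to the nearest other array divided by the whole range. Chance alone gives about 1 such set in 20. The gap was 0.876 for *ATG12*, where array 4 was low, 0.838 for *ATG2B*, where array 1 was high, and 0.876 for *ATG4B*, where array 3 was low. It was 0.848 for *CTSA* and 0.919 for *NEU1*, in both of which array 1 was nearest 0, and 0.856 for *CTSH*, where array 4 was low at -0.34. For the median of the fibroblast markers, 0.33 on array 1 and -0.06, -0.07 and -0.07 on the others, it was 0.961.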

How the results depend on the processing

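Of 16 alternatives, 1 was chosen after seeing the data: arrays 1 and 2 alone, since Feature Extraction put the spike-in slopes of arrays 3 and 4 (0.833 and 0.803, against 0.859 and 0.855) outside its range. In limma 6257 probes, 9 genes of interest and 19 other pathway genes were past the threshold. The methods' t-test, from the study's processing notes, gave 768, 1 and 2, with 12 genes of interest at an unadjusted *P* under 0.05. In limma that number was the same, but not all of the genes. Of all 27383 tested probes 8435 were under it in the t-test and 10546 in limma. Separate channels without pairing gave 2569 probes and 10 pathway genes, testing dim probes too 3690 and 4, a minimum change of 1.3-fold 3863 and 7, and arrays 1 and 2 alone 3160 and 3. Leaving out each array in turn gave 2573 to 4957 probes, 4 to 9 genes of interest and 4 to 16 pathway genes. The lowest counts came without array 2 (2573, 4 and 4) and array 3 (2705, 4 and 5), and without array 4 the pathway genes were also 5. Of the calls, 49.1% were higher in HMB-treated cells, against 34.7% with separate channels and 36.4% without array 2. The mean over the probes of a gene leaves no count of probes.

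Of the values of named genes tested in the main fit, 839 stayed on their side of the threshold (the sign of values short of it was not compared), 113 no longer passed, 5 newly passed (*CTSO*, tested only without array 4 and with arrays 1 and 2 alone, is not among them) and 2 turned without lowess normalisation, *CTSB* to 0.34 and *PSAP* to 0.32. The causes were not tested. *GABARAPL2* and *ATP6V1E2* passed with any 1 array left out. So did *CTSC*, but only through its control channel and against an HMB signal not above background, which shows no stability of its change. With both channels required above background *CTSC* had no value. Genes near background, such as *CTSD* and *TFEB*, cannot be judged from these arrays.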
